A study of Mus musculus with 4 samples.

Results

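The chemokine genes Ccl2, Ccl5, Ccl7, Ccl20, Cxcl1, Cxcl2, Cxcl10, Cxcl12, Cxcl16 and Cx3cl1 were examined in primary cultures of newborn mouse prefrontal cortex (PFC) grown with or without FGF2. They were taken from a list of names, matched by gene identifier to the symbols of GENCODE M21, and all 10 names were found among the 55421 genes listed in each library. By family the list holds 4 CC, 5 CXC and 1 CX3C chemokines. The list was drawn up from the difference between the cultures with and without FGF2 in these same libraries, so that difference is described for its genes and not tested.

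Chemokines are small proteins that bind to G protein-coupled receptors and direct the movement of leukocytes, microglia, neurons and their precursors. In the brain, astrocytes and microglia release Ccl2, Cxcl1 and Cxcl10 in response to inflammatory signals, Cxcl12 guides migrating interneurons and Cajal-Retzius cells, and neurons carry Cx3cl1 (fractalkine), whose receptor Cx3cr1 is found on microglia. The transcription of many inflammatory chemokines is driven by NF-kB and interferon regulatory factors, and AU-rich elements in their 3′ untranslated regions shorten the life of the transcripts.

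PFC tissue of wild-type C57BL/6 mice at postnatal day 0 was freed of meninges and blood vessels, dissociated with papain and cultured for 10 days in Neurobasal medium with B27. Basic fibroblast growth factor (FGF2) was given at 5 ng/mL to the treated cultures and left out of the others, and total RNA of the whole culture was sequenced in 2 libraries per group. No cells were sorted, no gene was targeted, and the numbers of animals and cultures behind a library are not given in the sources used here. The labels number the libraries of a group 1 and 2 without saying whether they come from separate cultures, so the spread between them may be technical.

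The counts on genes totalled 9166432 and 9907613 in the FGF2 libraries and 10460236 and 10799886 in the libraries with no FGF2. Levels are given in CPM, which divides each count by the TMM-adjusted size of its library. A count of 3 or fewer was treated as the floor, which corresponded to between 0.276 and 0.33 CPM. Intervals and floors cover counting error only. The cultures held glia and neurons side by side. Astrocyte markers summed to 12430 and 12310 CPM with FGF2 and 7527 and 7477 CPM with no FGF2, and neuronal markers to 2662 and 2698 CPM against 3702 and 3678 CPM. The data therefore describe chemokine transcripts of mixed cultures rather than of glia alone.

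The sequences of 4 start regions are shown because these genes carried the NF-kB consensus close to their start and because they differed most in level, from the highest member with FGF2 (Cxcl10) to one that stayed at the floor (Ccl20). Each run is the 250 bases before the RefSeq transcription start, written from 5′ to 3′ on the strand of the gene in build GRCm38.p6, and capitals mark the match to the NF-kB consensus. The windows are chr5:90890995-90891244 on the plus strand for Cxcl1, chr5:90903649-90903898 on the plus strand for Cxcl2, chr5:92348890-92349139 on the minus strand for Cxcl10 and chr1:83116516-83116765 on the plus strand for Ccl20.
Cxcl1: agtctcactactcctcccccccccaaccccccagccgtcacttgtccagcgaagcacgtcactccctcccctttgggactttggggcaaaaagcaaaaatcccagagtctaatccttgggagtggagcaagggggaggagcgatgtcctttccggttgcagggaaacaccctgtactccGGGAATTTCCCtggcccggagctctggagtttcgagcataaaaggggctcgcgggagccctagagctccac
Cxcl2: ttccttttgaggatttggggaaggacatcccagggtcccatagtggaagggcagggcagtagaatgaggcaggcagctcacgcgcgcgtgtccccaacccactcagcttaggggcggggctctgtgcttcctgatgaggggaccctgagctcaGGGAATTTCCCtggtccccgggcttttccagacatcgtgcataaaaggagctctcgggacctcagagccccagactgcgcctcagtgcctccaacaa
Cxcl10: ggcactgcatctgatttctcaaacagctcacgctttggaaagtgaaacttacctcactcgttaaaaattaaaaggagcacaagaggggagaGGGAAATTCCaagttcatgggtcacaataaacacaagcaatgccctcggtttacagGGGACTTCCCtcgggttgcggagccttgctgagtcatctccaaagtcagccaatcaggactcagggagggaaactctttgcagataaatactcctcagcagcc
Ccl20: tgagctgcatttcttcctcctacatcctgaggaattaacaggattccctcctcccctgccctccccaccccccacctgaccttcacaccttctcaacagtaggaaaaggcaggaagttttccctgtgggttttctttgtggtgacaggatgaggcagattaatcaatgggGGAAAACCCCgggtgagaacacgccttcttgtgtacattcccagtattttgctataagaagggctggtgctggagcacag
The first base of the match lay at -71 from the start in Cxcl1, at -97 in Cxcl2, at -159 and -103 in Cxcl10 and at -80 in Ccl20. In Cxcl1 and Cxcl2 the capitals hold a match on each strand, shifted by 1 base. In Cxcl10 both matches are on the strand shown. In Ccl20 the consensus is matched on the strand opposite to the one shown. The match GGGAATTTCC was the same in Cxcl1 and Cxcl2. Of the 32817 RefSeq promoters of the same length, 4.5% held the NF-kB consensus on either strand.

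RefSeq promoters were matched for 6 of the 10 genes, and those of Cxcl12 and Cx3cl1 held no such match. Cxcl10 also held GAAAGTGAAA at -213, a match to the core of the interferon-stimulated response element (GAAA, any 2 bases, GAAA), which was found in 3.43% of all promoters. An AP-1 match, TGAGTCA, lay at -74 in Cxcl10 (TGANTCA, 7.81% of all promoters). Neither of these motifs was matched in the other 5 promoters. The letters TTNNGCAA (C/EBP, 10.8% of all promoters) and TTCNNNGAA (GAS element, 8.29%) were matched in none of the 6. These matches describe letters in the windows and do not show that a factor was bound.

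The 3′ untranslated regions separated the genes further. The AU-rich heptamer TATTTAT occurred 6 times in the 592 bases of Cxcl1 and 7 times in the 1494 bases of Cxcl2. Among mouse 3′ untranslated regions of like length, 0.0426% of 2348 held as many as Cxcl1 and 0.197% of 3044 as many as Cxcl2. Regions are those of the longest coding transcript of each gene, and the shares may count the gene itself. The heptamer was found 1 time each in Ccl20, Cxcl12 and Cx3cl1 and was not found in Ccl2, Ccl5, Ccl7, Cxcl10 and Cxcl16. The 30 bases with the densest run of ATTTA are shown for the pair, with ATTTA in capitals.
Cxcl1: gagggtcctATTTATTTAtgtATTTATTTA
Cxcl2: tATTTATTTAtctatgtATTTATTTATTTA
The run began at base 79 of the Cxcl1 region and at base 883 of the Cxcl2 region. Both neutrophil chemokines held repeats of the heptamer, whereas the monocyte chemokine Ccl2 and the T cell chemokine Cxcl10 did not hold it. The shorter ATTTA was not confined to the pair. It occurred 7 times in Cxcl1, 11 times in Cxcl2, 9 times in Ccl20, 3 times in Cxcl10 and 1 time in Ccl2.

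Of the 10 genes, 7 had both FGF2 libraries above both libraries with no FGF2, 1 (Cx3cl1) had both below, and 2 (Ccl5 and Ccl20) were at or under 3 counts in every library. Among the 17144 genes that passed the expression filter, 33.6% had both FGF2 libraries above and 33.4% had both below. The filter was passed by 8 of the 10 genes, and the list was chosen on this contrast, so nothing is read from these counts. The median difference of mean log2 CPM (prior count 1) was 3.44 over the 10 genes and -0.0031 over all genes that passed the filter.

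**Figure D1:**
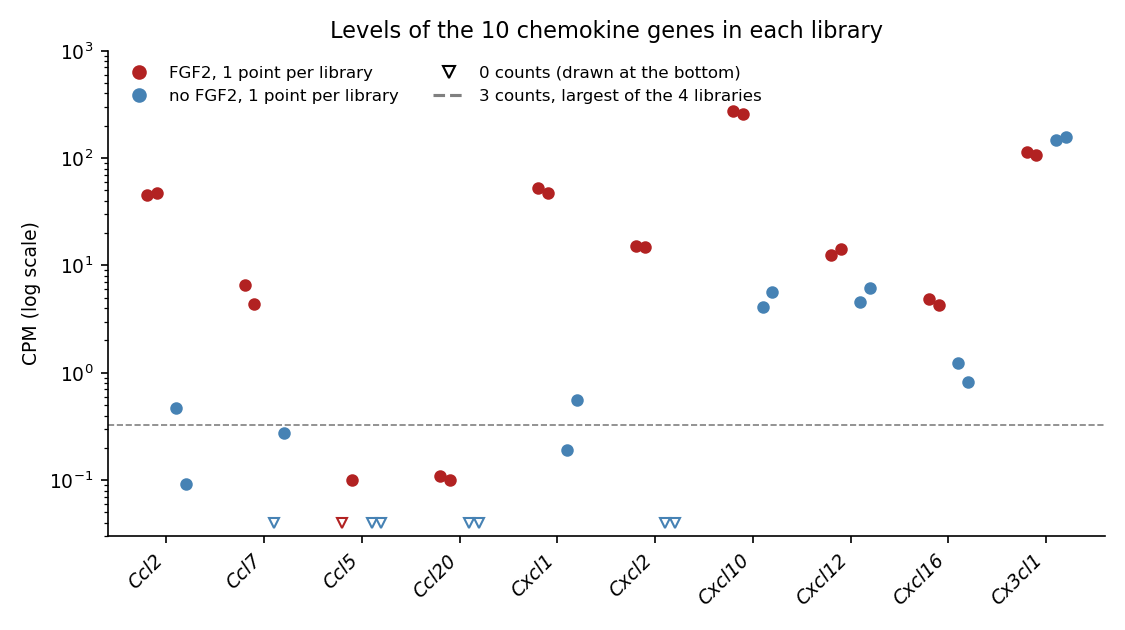
CPM on a log axis for each of the 10 chemokine genes, with 1 point for each FGF2 library and each library with no FGF2. Open triangles at the bottom stand for 0 counts and the dashed line for 3 counts. Ccl2, Ccl7, Cxcl1, Cxcl2 and Cxcl10 are separated by more than 10-fold between the groups, Cxcl12 and Cxcl16 by less, and Cx3cl1 lies lower with FGF2.

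The monocyte chemokines of chromosome 11 were nearly silent without FGF2. Ccl2 (ENSMUSG00000035385, chr11:82035571-82037453, plus strand, mm10), the main ligand of Ccr2, had 413 and 465 counts with FGF2 and 5 and 1 counts with no FGF2. In CPM this was 46.3 ± 1.24 (SD, n = 2) against 0.283 ± 0.27 (SD, n = 2), a 165-fold higher level with a 95% counting interval of 75.5 to 451. The ratio between single libraries ran from 95.6 to 512, and the smaller of these was reached with the library of 5 counts.

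Ccl7 (ENSMUSG00000035373, chr11:82045712-82047525, plus strand), which binds Ccr2 and also Ccr1 and Ccr3, begins 8.258 kb after the end of Ccl2. It had 60 and 43 counts with FGF2 and 0 and 3 counts with no FGF2. The ratio of the summed counts was 38.7, with a counting interval of 12.9 to 191. The log2 difference (prior count 1) was 4.82 with all libraries, 3.86 without the first and 5.78 without the second library with no FGF2. Both libraries with no FGF2 were at the floor, and the 2 FGF2 libraries differed from each other (6.6 and 4.36 CPM) by more than those of Ccl2 did (45.4 and 47.2 CPM).

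The other CC members were not detected at this depth. Ccl5 (ENSMUSG00000035042, chr11:83525778-83530518, minus strand), a T cell and monocyte chemokine that binds Ccr1 and Ccr3 among others, had 0 and 1 counts with FGF2 and 0 counts in both libraries with no FGF2. Ccl20 (ENSMUSG00000026166, chr1:83116766-83119167, plus strand), the ligand of Ccr6, had 1 count in each FGF2 library and 0 in the others. No fold was computed for either gene, and the NF-kB match in the Ccl20 promoter shown above was accompanied by no measurable transcript.

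The neutrophil chemokines Cxcl1 and Cxcl2, both ligands of Cxcr2, were high with FGF2 and at or near 0 without it. Cxcl1 (ENSMUSG00000029380, chr5:90891241-90893115, plus strand) had 475 and 469 counts with FGF2 and 2 and 6 counts with no FGF2. Its level of 49.9 ± 3.29 CPM (SD, n = 2) was 133-fold higher, with a counting interval of 67.3 to 309. The ratio between single libraries ran from 86.1 to 275, the lower values being set by the second library with no FGF2. Cxcl2 (ENSMUSG00000058427, chr5:90903871-90905938, plus strand) had 139 and 145 counts with FGF2 and no count in either library with no FGF2. Against a floor of 3 counts per library its level of 15 ± 0.406 CPM (SD, n = 2) was at least 53.4-fold higher. The genes lie 10.755 kb apart on the same strand. Cxcl2 shares a stretch of 116 bases with 98.3% identity with Cxcl3, which had 0 counts in every library, and read pairs that fall wholly in that stretch may have been removed by the mapping quality filter.

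Cxcl10 (ENSMUSG00000034855, chr5:92346638-92348889, minus strand), an interferon-induced ligand of Cxcr3 on activated T cells, was the most abundant of the 10 transcripts with FGF2. It had 2494 and 2542 counts with FGF2 and 43 and 62 counts with no FGF2. The level was 266 ± 11.6 CPM against 4.9 ± 1.15 CPM (SD, n = 2 each), a 54.1-fold difference with a counting interval of 44.6 to 66.3. Unlike Ccl2, Cxcl1 and Cxcl2, it was counted well above the floor in the cultures with no FGF2 as well. The gene shares 133 exonic bases with Art3 on the opposite strand, which had 8 to 13 counts.

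Cxcl12 (ENSMUSG00000061353, chr6:117168535-117181367, plus strand), the homeostatic ligand of Cxcr4 and Ackr3, differed by far less. It had 113 and 140 counts with FGF2 and 48 and 67 counts with no FGF2. The level was 13.3 ± 1.26 CPM against 5.36 ± 1.14 CPM (SD, n = 2 each), a 2.48-fold difference with a counting interval of 1.98 to 3.12.

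The 2 members made as membrane-bound proteins, with a chemokine domain on a mucin-like stalk, went in opposite directions. Cxcl16 (ENSMUSG00000018920, chr11:70453983-70459984, minus strand), the ligand of Cxcr6, had 44 and 42 counts with FGF2 and 13 and 9 counts with no FGF2. The level was 4.55 ± 0.408 CPM against 1.03 ± 0.286 CPM (SD, n = 2 each), a 4.41-fold difference with a counting interval of 2.74 to 7.4. Its exons share 552 bases with Zmynd15 on the opposite strand, which had 21 and 24 counts with FGF2 and 8 and 14 counts with no FGF2.

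Cx3cl1 (ENSMUSG00000031778, chr8:94772009-94782427, plus strand) had 1028 and 1056 counts with FGF2 and 1563 and 1713 counts with no FGF2. The level was 110 ± 4.18 CPM against 153 ± 6.66 CPM (SD, n = 2 each), 1.39-fold higher with no FGF2 with a counting interval of 1.32 to 1.47. All 6 neuronal markers examined (Rbfox3, Snap25, Syt1, Map2, Tubb3 and Stmn2) were also lower with FGF2 by the quasi-likelihood test of edgeR. Of all genes tested, 19.9% were called lower. The neuronal markers were lower by between 0.32 and 1.1 on the log2 scale. In RNA from whole cultures, fewer cells of a type and less RNA per cell cannot be told apart, and the part of the neuronal share in the Cx3cl1 level was not tested.

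**Figure D2:**
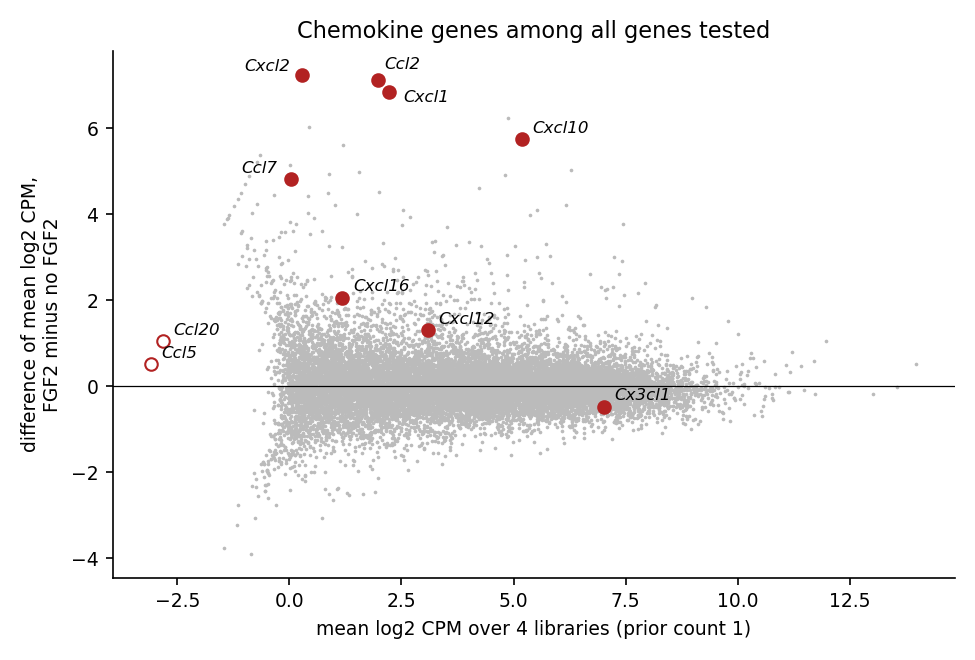
Difference of mean log2 CPM (FGF2 minus no FGF2, vertical axis) against mean log2 CPM over the 4 libraries (horizontal axis), both with a prior count of 1, for all 17144 genes that passed the filter (grey). The chemokine genes are red, open for Ccl5 and Ccl20, which did not pass. Cxcl2, Ccl2, Cxcl1 and Cxcl10 lie at the upper edge of the cloud, and Cx3cl1 lies below 0 among the well expressed genes.

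The summed level of the 10 genes was 524 and 497 CPM with FGF2 and 159 and 171 CPM with no FGF2, a 3.09-fold difference. Most of both sums came from single transcripts. With Cxcl10 and Cx3cl1 set aside, the other 8 genes summed to 135 ± 3.12 CPM with FGF2 and 7.19 ± 1.04 CPM with no FGF2 (SD, n = 2 each), an 18.7-fold difference. The CC genes summed to 51.9 ± 0.271 CPM against 0.422 ± 0.0751 CPM and the CXC genes to 349 ± 14.4 CPM against 11.7 ± 2.26 CPM.

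Levels were compared between genes per kilobase of exon (CPM per kb). With FGF2, Cxcl10 stood first at 118 ± 5.14 CPM per kb and Ccl2 next at 40.7 ± 1.09 (SD, n = 2 each). Cx3cl1 at 28 ± 1.06 and Cxcl1 at 26.6 ± 1.75 CPM per kb followed, and their libraries overlapped. Cxcl2 (7.11 and 7.39 CPM per kb) and Ccl7 (5.44 and 8.23) also overlapped, as did Cxcl12 (1.52 and 1.74) and Cxcl16 (1.41 and 1.6). Ccl20 and Ccl5 were last, at the floor.

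With no FGF2 the order was another. Cx3cl1 was at 39 ± 1.7 CPM per kb (SD, n = 2), followed by Cxcl10 at 2.17 ± 0.512, Cxcl12 at 0.656 ± 0.14 and Cxcl16 at 0.341 ± 0.0948. Ccl2, Ccl7, Cxcl1, Cxcl2, Ccl5 and Ccl20 were at or below 0.417 CPM per kb in each library. Ccl2, Ccl7 and Cxcl1 overlapped with Cxcl16 there.

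As a share of the summed CPM per kb, Cx3cl1 made up 91.2% with no FGF2 and 12.1% with FGF2, and Cxcl10 made up 5.06% with no FGF2 and 51.2% with FGF2. Ccl2 held 17.6% and Cxcl1 11.5% of the sum with FGF2, against 0.599% and 0.455% with no FGF2. When the length of the longest coding transcript was used in place of all exons, the share of Cxcl1 with FGF2 was 14.6% and that of Cx3cl1 9.27%, and these genes changed places. That length was chosen after the data were seen.

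**Figure D3:**
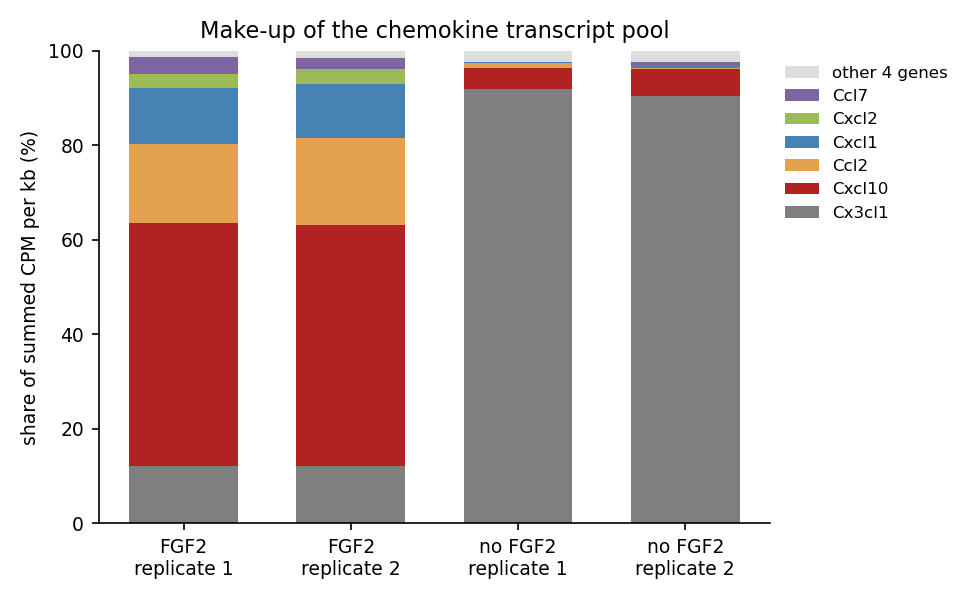
Share of each gene in the summed CPM per kb of the 10 chemokine genes (vertical axis, percent) in each of the 4 libraries (bars). Cx3cl1 fills over 90% of both bars with no FGF2, and Cxcl10 fills over 50% of both FGF2 bars.

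The members lie in gene groups in which some genes were counted and others were at or under the floor. Between Ccl2 and Ccl1 on chromosome 11, Ccl2 and Ccl7 had the most counts, while Ccl11 had at most 1 count, Ccl8 had none, Ccl1 had 1 or 2 counts in each library and Ccl12 had 3 and 13 counts with FGF2 and 1 and 3 with no FGF2. In the second group of that chromosome, Ccl5 was at the floor beside Ccl3, Ccl4 and Ccl9, which were counted. On chromosome 5, Cxcl1 and Cxcl2 were counted together with Cxcl5, while Ppbp, Cxcl3 and Cxcl15 had 0 counts in all libraries and Pf4 had at most 3.

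Cxcl10 lies 18.558 kb from Cxcl9, another interferon-induced ligand of Cxcr3, and 10.654 kb from Cxcl11, which GENCODE M21 lists as a polymorphic pseudogene. Cxcl9 had 0 counts in every library, and Cxcl11 had 2 and 1 counts with FGF2 and 0 with no FGF2. Cx3cl1 on chromosome 8 lies between Ccl22 and Ccl17, which had at most 2 counts in any library.

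**Figure D4:**
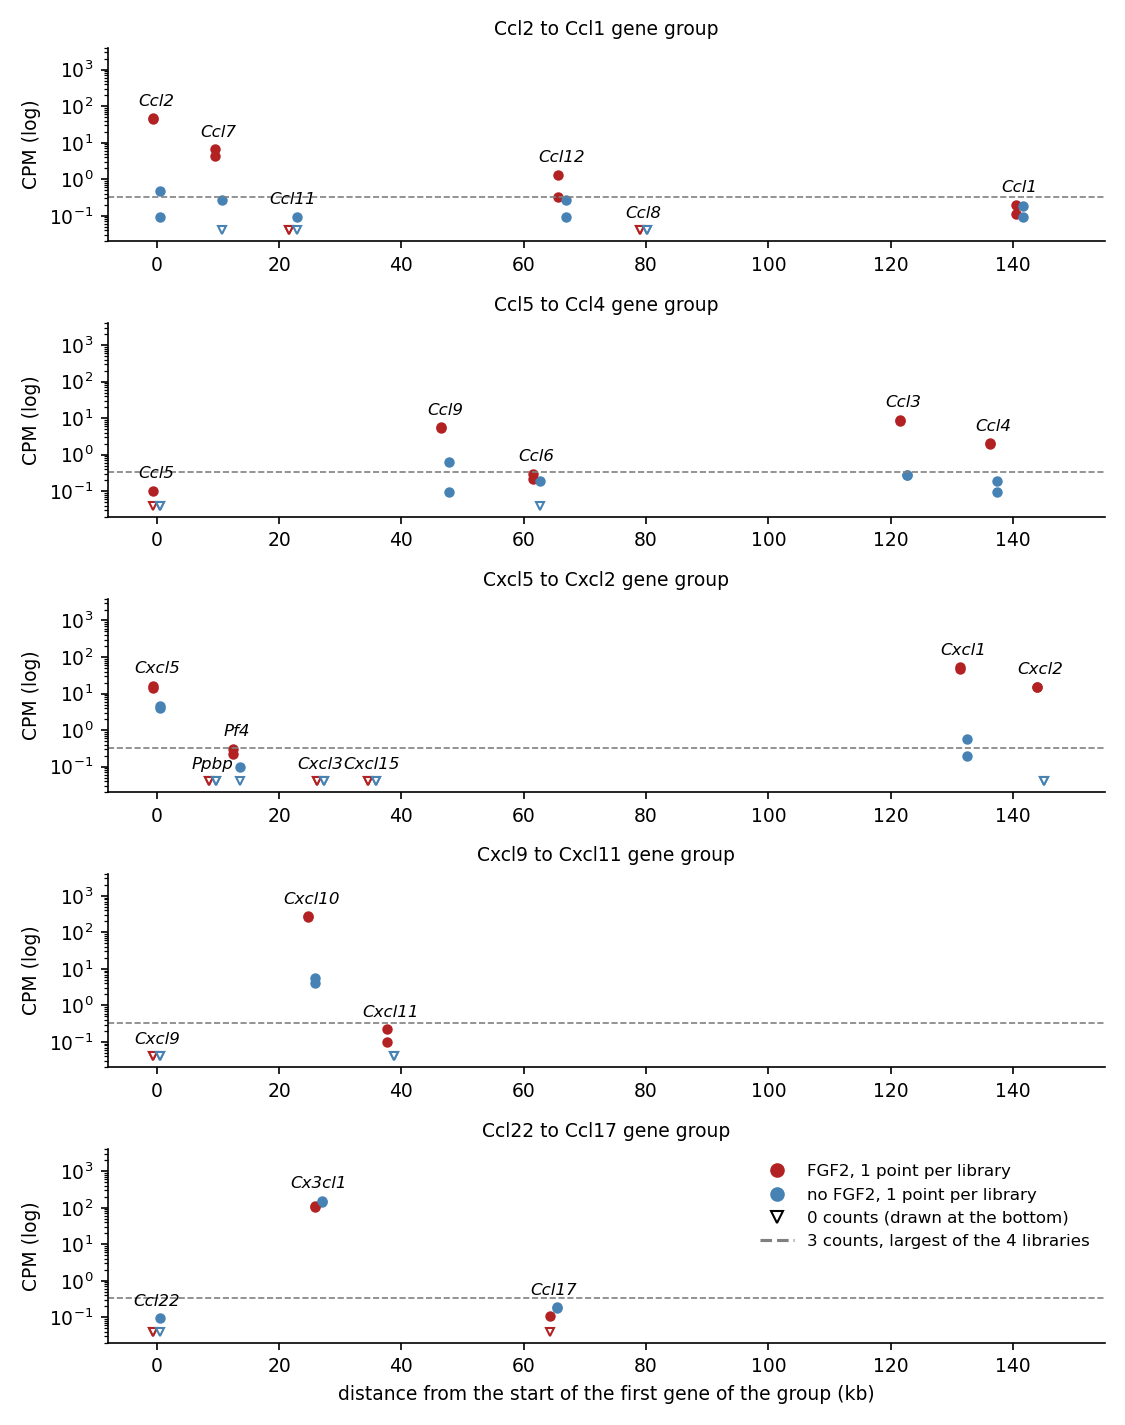
CPM on a log axis against distance in kb from the first gene, for the 5 gene groups that hold Ccl2 and Ccl7, Ccl5, Cxcl1 and Cxcl2, Cxcl10, and Cx3cl1, with 1 point per library. Open triangles stand for 0 counts and the dashed line for 3 counts. Ccl7 beside Ccl2 and Cxcl2 beside Cxcl1 are counted with FGF2, while Ccl11, Ccl8, Cxcl9 and Cxcl11 are at or under the floor.

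The other chemokine ligands, which the list does not contain, were tested with edgeR over all 17144 genes, of which 40.5% were called at an adjusted p-value below 0.05 (20.7% higher and 19.9% lower with FGF2). This set of other ligands, like the lists below, was chosen with earlier results of these data known, so its counts of calls are a description. Of 26 other ligand genes, 7 passed the filter. Of these, Ccl3, Ccl4 and Ccl9 had at most 7 counts in a library with no FGF2 and passed through the FGF2 libraries in which they were high, so their direction is given as a description. The other 4 had at least 10 counts in every library, and 1 was higher, 1 was lower and 2 were not called, with a median log2 fold change of -0.23. Among all genes with at least 10 counts in every library, 42.4% were called (21.4% higher and 20.9% lower), with a median of 0.00074. A further 18 were at or under 3 counts in every library, 10 of them at 0.

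Ccl3 (macrophage inflammatory protein 1 alpha) had 81 and 80 counts with FGF2 and 3 counts in each library with no FGF2. Its log2 fold change was 4.86 ± 0.44 (SE), given without a test like those of Ccl4 and Ccl9. Ccl4, a neighbour of Ccl3 on chromosome 11, had 18 and 20 counts against 1 and 2 (log2 fold change 3.72 ± 0.79). Ccl9, a rodent ligand of Ccr1, had 52 and 54 counts against 1 and 7 (log2 fold change 3.86 ± 0.48). Its log2 fold change was 3.09 without the first and 5.70 without the second library with no FGF2. Cxcl5, a ligand of Cxcr2 like Cxcl1 and Cxcl2, had 126 and 161 counts against 41 and 51 (log2 fold change 1.81 ± 0.21, edgeR adjusted p = 7.02e-17).

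Cxcl14 was the ligand that fell, from 316 and 302 counts with no FGF2 to 211 and 203 with FGF2, a log2 fold change of -0.40 ± 0.12 (SE, edgeR adjusted p = 0.00341). Its call was lost without the second FGF2 library (adjusted p = 0.0679) and without the first library with no FGF2 (adjusted p = 0.0726), and DESeq2 did not make it (adjusted p = 0.11). Ccl25, at 32.6 ± 0.98 CPM with FGF2 and 38.3 ± 1.43 CPM with no FGF2, and Ccl28, at 3.32 ± 0.184 and 3.88 ± 0.281 CPM (SD, n = 2 each), did not pass (edgeR adjusted p = 0.0602 and 0.623). Ccl25 was called lower with upper quartile scaling (adjusted p = 0.0341) and total count scaling (0.0411). Ccl25 shares 204 exonic bases with Elavl1 on the opposite strand.

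The receptors of the ligands that differed most were at or near 0. Ccr2, the receptor of Ccl2 and Ccl7, had 0 and 1 counts with FGF2 and none without it. Cxcr2, the receptor of Cxcl1 and Cxcl2, had 0 and 5 counts with FGF2 and none without it, and Ccr1 had the same 0 and 5. Cxcr3, the receptor of Cxcl10, had 0 counts in all 4 libraries, and so had Cxcr6, Ccr6 and Ccr3. A count of 0 here allows up to 0.33 CPM in the shallowest library.

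The receptors of Cxcl12 and Cx3cl1 were the ones expressed, and 2 of the 18 classical receptor genes passed the filter. Cxcr4, which directs the migration of neurons and precursors along Cxcl12, had 107 and 104 counts with FGF2 and 187 and 151 counts with no FGF2. It was lower with FGF2 by 0.51 ± 0.16 on the log2 scale (edgeR adjusted p = 0.00692), opposite to its ligand Cxcl12. The call was lost without the second FGF2 library (adjusted p = 0.0719) and without the first library with no FGF2 (adjusted p = 0.279).

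Cx3cr1, the microglial receptor of Cx3cl1, had 24 and 37 counts with FGF2 and 17 and 13 with no FGF2. It was higher with FGF2 by 1.19 ± 0.43 on the log2 scale (edgeR adjusted p = 0.0154), again opposite to its ligand. The call was lost without the second FGF2 library (adjusted p = 0.21) and without the second library with no FGF2 (adjusted p = 0.146). DESeq2 called neither receptor (adjusted p = 0.167 for Cxcr4 and 0.183 for Cx3cr1).

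Many atypical receptors bind chemokines without G protein signalling, and some of these receptors take chemokines up or remove them. Ackr3, the second receptor of Cxcl12, had 75 and 69 counts with FGF2 and 56 and 52 with no FGF2, and was higher by 0.59 ± 0.24 on the log2 scale (edgeR adjusted p = 0.0368). This was the 1 call among the 6 atypical receptor genes, of which 2 passed the filter. It was lost without the first FGF2 library (adjusted p = 0.207), without either library with no FGF2 (0.0977 and 0.214), with no filter beyond 1 count (0.0536) and with DESeq2 (0.289). Ackr1, which takes up inflammatory CC and CXC chemokines, had 311 and 310 counts against 378 and 420 (edgeR adjusted p = 0.151). It shares 361 of its 1405 exonic bases with Cadm3 on the same strand, which had 3516 to 4377 counts, so its count is uncertain. Ackr2 had 1 and 2 counts with FGF2 and 0 and 1 with no FGF2, and Ccrl2 had 4 counts in each FGF2 library and 0 in the others.

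**Figure D5:**
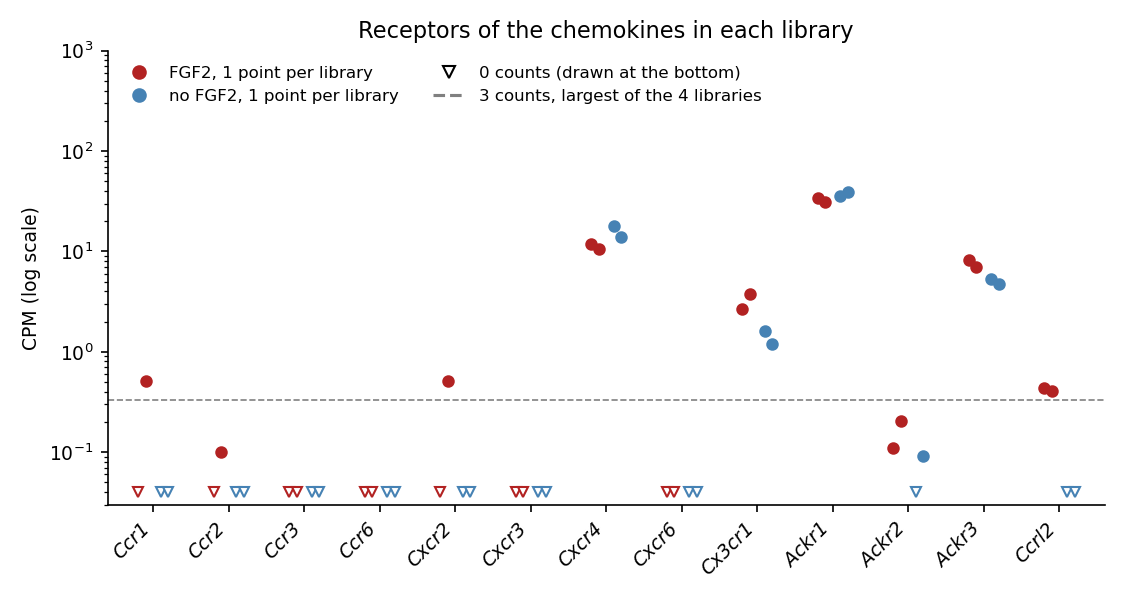
CPM on a log axis for classical and atypical receptors of the chemokines, with 1 point per library. Open triangles stand for 0 counts and the dashed line for 3 counts. Cxcr4, Cx3cr1, Ackr1 and Ackr3 lie above 1 CPM in all 4 libraries, and the receptors of Ccl2, Cxcl1, Cxcl2 and Cxcl10 lie at or near the floor.

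A list of 9 genes held proteases that cut or shed chemokines, cofactors of shedding and protease inhibitors. The list was chosen with earlier results of these data known, so its counts of calls are a description. Of these, 7 passed the filter and 6 were higher, against 20.7% of all genes tested, while 0 were lower and 1 was not called. The 6 were 2 proteases, 2 cofactors and 2 inhibitors, and the median log2 fold change of the 7 was 0.58. The metalloproteases that release Cx3cl1 and Cxcl16 from the membrane were among them. Adam17 rose from 55 ± 0.948 to 82 ± 4.06 CPM (log2 fold change 0.58 ± 0.08, edgeR adjusted p = 1.89e-12) and Adam10 from 111 ± 2.53 to 130 ± 11.1 CPM (0.23 ± 0.06, edgeR adjusted p = 0.000603). The Adam10 call was lost without the second FGF2 library (adjusted p = 0.127) and with DESeq2 (0.0528). The Adam17 cofactors Rhbdf1 and Rhbdf2 rose by 0.78 ± 0.11 and 1.81 ± 0.20 on the log2 scale, and the protease inhibitors Timp1 and Timp3 by 1.90 ± 0.35 and 0.32 ± 0.05. Mmp2, which cuts Ccl7 and Cxcl12, was at 9.77 ± 1.53 and 11.2 ± 1.63 CPM and was not called (edgeR adjusted p = 0.445), and Mmp9 and Dpp4 did not pass the filter.

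Regulators of chemokine transcription and decay were all counted. Their list was chosen with earlier results of these data known, so its counts of calls are a description. Of 15 genes, 13 were higher, against 20.7% of all genes tested, 1 was lower, against 19.9%, and 1 was not called, with a median log2 fold change of 1.00. Nfkbiz, a nuclear NF-kB cofactor, rose from 133 and 162 counts to 967 and 1025 (log2 fold change 2.93 ± 0.10, edgeR adjusted p = 2.5e-193). Nfkb1 rose by 1.35 ± 0.07, Rela by 0.97 ± 0.09, Fos by 1.82 ± 0.11 and Jun by 0.46 ± 0.07 on the log2 scale. Among interferon regulators, Irf1 rose by 2.26 ± 0.14, Irf7 by 1.45 ± 0.31 and Irf3 by 0.45 ± 0.12 on the log2 scale. The Irf3 call was lost without the first FGF2 library (edgeR adjusted p = 0.205), without the second library with no FGF2 (0.0906) and with DESeq2 (0.0975).

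Among genes of this list whose proteins destroy chemokine and cytokine transcripts, 4 of 5 rose with FGF2, against 20.7% of all genes tested. Like the counts of the whole list, this is a description. Zfp36 (tristetraprolin), which binds AU-rich elements like those of Cxcl1 and Cxcl2, had 255 and 304 counts with FGF2 and 39 and 48 with no FGF2 (log2 fold change 2.85 ± 0.17, edgeR adjusted p = 3.21e-58). The RNase Zc3h12a (regnase-1), which acts on stem-loops, had 84 and 107 counts against 30 and 25 (log2 fold change 1.96 ± 0.26, edgeR adjusted p = 6.47e-13). Zfp36l1 rose by 1.00 ± 0.06 and Zfp36l2 by 0.34 ± 0.11 on the log2 scale, the latter call being lost without the second FGF2 library (adjusted p = 0.106), without the second library with no FGF2 (0.098) and with DESeq2 (0.16). Elavl1 (HuR), which stabilises AU-rich transcripts, was the gene that fell, by 0.25 ± 0.05 on the log2 scale (edgeR adjusted p = 1.16e-05). Khsrp, a further decay factor, did not pass (edgeR adjusted p = 0.9).

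Cytokines that induce chemokines were detected with FGF2 and were at or near the floor without it. Tnf had 59 and 56 counts against 2 and 2 (log2 fold change 4.93 ± 0.54, SE, given without a test). Il6 had 15 counts in each FGF2 library against 1 and 0, a ratio of 33.8 with a counting interval of 5.63 to 1381. Without the second library with no FGF2 its log2 fold change was 3.89 in place of 4.75, and without the first it had no count left in that group. Il1b had 12 counts in each FGF2 library against 0 and 2, a ratio of 13.5 with a counting interval of 3.36 to 118. Without the first library with no FGF2 the log2 fold change of Il1b was 2.70 in place of 3.60. Il1a had 13 and 15 counts against 0 in both libraries with no FGF2, at least 5.26-fold higher. Il17a, Ifnb1 and Ifng had 0 counts in every library.

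The receptors for such signals were also higher. Cd14, the coreceptor for bacterial endotoxin, had 82 counts in each FGF2 library and 4 in each of the others (log2 fold change 4.49 ± 0.42). Tlr4 rose by 1.37 ± 0.30, Ifngr1 by 1.02 ± 0.11, Tnfrsf1a by 0.92 ± 0.10, Il17ra by 0.65 ± 0.25, Ifnar2 by 0.60 ± 0.19, Il1r1 by 0.50 ± 0.12, Ifngr2 by 0.38 ± 0.07 and Ifnar1 by 0.17 ± 0.06 on the log2 scale. The list of cytokines and receptors too was chosen with earlier results of these data known, so its counts of calls are a description. In all, 13 of the 16 genes of this list passed the filter. Tnf, Il6, Il1b, Il1a and Cd14 had at most 4 counts in a library with no FGF2. They passed through the FGF2 libraries in which they were high, so they are given without a test and not counted here. The other 8 were higher, against 21.4% of all genes with at least 10 counts in every library, with a median log2 fold change of 0.63. The Il17ra and Ifnar1 calls were lost without any library but the first FGF2 library, the Ifnar2 call without the first FGF2 library (adjusted p = 0.0982) and without the second library with no FGF2 (0.1), and the Il1r1 call without the first library with no FGF2 (0.0629). Adjusted p-values were then 0.0942 to 0.158 for Il17ra and 0.0967 to 0.197 for Ifnar1. DESeq2 did not call Il17ra, Ifnar1 or Ifnar2 (adjusted p = 0.254, 0.194 and 0.135).

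Markers of cell types that could carry these transcripts differed as well. The marker lists were also chosen with earlier results of these data known, so their counts of calls are a description. Of 12 microglial markers, 6 had at least 10 counts in every library. Of these 4, among them Cx3cr1, were higher with FGF2 by edgeR, against 21.4% of all such genes. Ptprc had 21 and 28 counts with FGF2 and 3 and 10 with no FGF2. It passed the expression filter through the FGF2 libraries, so it is not counted. The 12 genes summed to 47.9 and 50.3 CPM with FGF2 and 31.6 and 29.4 CPM with no FGF2, and Siglech was at 0 in every library. Blood leukocyte genes summed to 9.56 and 12.1 CPM with FGF2 and 0.19 and 0 CPM with no FGF2. The counts came from S100a8, S100a9 and Ly6c2, which had at most 2 counts in a library with no FGF2 and are given without a test, while Cd3e and Ly6g, which mark T cells and neutrophils, were at 0 throughout.

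Among all genes with at least 10 counts in every library, 21.4% were higher and 20.9% lower. By this filter, 7 of 8 astrocyte markers were higher. All 7 oligodendrocyte lineage markers were higher, with sums of 1738 and 1749 CPM against 512 and 523 CPM. Of 7 endothelial markers 3 passed it, 1 was higher and 1 was lower. The 7 summed to 14.1 and 12.5 CPM against 6.93 and 11.1 CPM, with Cldn5 at 0 in every library. Flt1, at 52 and 36 counts against 6 and 9, passed the expression filter only through the FGF2 libraries and is not counted. Of 7 fibroblast and mural markers 5 passed the filter of 10 counts, 2 were higher and 1 lower, with sums of 66.2 and 62.8 CPM against 50.1 and 51.8 CPM. Col1a2, at 19 and 9 counts against 44 and 62, was left out by that filter. The part of any of these cell types in the chemokine levels was not tested.

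The genes whose levels followed 3 contrasting members most closely were found by the Euclidean distance between centred log2 CPM values over the 4 libraries. For Ccl2 these were Gbp5, Casp4 and S100a9, at distances of 1.57, 1.72 and 1.99. Gbp5, an interferon-induced GTPase, had 2389 and 2461 counts with FGF2 and 32 and 39 with no FGF2, and Casp4 had 137 and 169 against 3 and 2. For Cxcl12 they were Armh4, Plekha4 and Gm37628, at 0.0746, 0.0941 and 0.11, and for Cx3cl1 they were Cntfr, Kndc1 and Lmnb2, at 0.0216, 0.0224 and 0.0285. Cntfr, the receptor of ciliary neurotrophic factor, had 336 and 344 counts with FGF2 and 504 and 564 with no FGF2. The distances from Ccl2 were thus far larger than those from Cxcl12 or Cx3cl1. Ccl2 itself had 5 and 1 counts with no FGF2, Casp4 had 3 and 2, and S100a9 had 2 and 0. Casp4 and S100a9 passed the expression filter through the FGF2 libraries. The part of counting error in these distances was not tested.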

How the data were processed

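Total RNA libraries were sequenced by the authors in paired-end mode. They mapped clean reads to mm10 with HISAT2 2.1.0, kept alignments with a mapping quality of at least 20 with Samtools and counted read pairs per gene with HTSeq 0.11.2 (versions from the submitters' processing notes). The deposited values are these raw counts per gene, not normalized. The annotation release and strand setting are not given in the sources used here. Of the genes whose exons lie at least 98% within another gene, 0.597% of 670 had a count where that gene was on the same strand and 34.1% of 472 where it was on the opposite strand, as when strands are counted apart.

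Of 55421 genes, 55240 matched GENCODE M21, which gave names, coordinates and exonic lengths. The 5 tallies that name no gene were left out. Read pairs in no feature made up 43.2% to 45.9% and ambiguous pairs 1.47% to 1.76%. All 37 mitochondrial genes were at 0. Libraries of a group differed by more than sampling noise (chi-square per degree of freedom 2.28 and 1.76) and were kept apart.

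Other genes were tested in R 4.3.3 by quasi-likelihood (edgeR 4.0.16) with TMM scaling, the edgeR expression filter, robust estimation and Benjamini-Hochberg adjustment over 17144 genes. The fit was tested on simulated data. P-values measure the spread between these libraries only, which may be technical. The 10 chemokines received no test. Their folds are ratios of summed counts, scaled by TMM library sizes, with exact binomial 95% intervals, or bounds against 3 counts per library. Transcripts of the 10 genes were aligned to those of other genes with BLAST 2.17.0 (at least 100 bases and 95% identity). Promoters came from RefSeq GRCm38.p6. The genes and all gene lists were chosen with earlier results of these data known. Genes named were the 10 chemokines, their receptors and marker genes. Pathway genes were named at an adjusted p-value below 0.05 and at least 1 CPM in the higher group. The 3 genes of no chemokine list nearest to each of Ccl2, Cxcl12 and Cx3cl1 were named as well. Some genes that this rule takes are not reported here. The alternatives tried were scaling by total count, upper quartile or RLE, other filters, DESeq2 1.42.0, limma-voom (limma 3.58.1), the replicate number as a block, each library left out, a threshold of 0.01, a prior count of 0.1, a floor of 10 counts and other gene lengths.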

Additional observations from a re-analysis of the deposited data

How the results depend on the processing

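The counts of calls moved with the tool and with low counts. Except under the filter of 10 counts, those of other ligands can include Ccl3, Ccl4 and Ccl9. Those of the cytokine list can include Tnf, Il6, Il1b, Il1a and Cd14. These genes passed the expression filter only through the FGF2 libraries. Over all genes 6948 were called by edgeR, 6915 by limma-voom and 4007 by DESeq2, and the cause of the lower DESeq2 count was not tested. DESeq2 called 7 of the cytokine and receptor list in place of 13, 0 of the 2 chemokine receptors and 0 of the atypical receptors, and it gave no adjusted p-value for Il1a, Il1b and Il6. At least 10 counts in every library, which leaves fewer genes to test, gave 2 other ligands in place of 5 and 8 of the cytokine list. No filter beyond 1 count left 0 atypical receptors, and a threshold of 0.01 left 1 chemokine receptor and 0 atypical receptors. Leaving out 1 library gave 5212 to 6199 calls over all genes, 4 to 6 other ligands, 0 to 2 chemokine receptors, 0 to 1 atypical receptors, 5 to 6 proteases and shedding factors, 11 to 13 transcript regulators and 9 to 11 of the cytokine list. Khsrp, not called, changed sign to -0.015 with upper quartile scaling, to -0.0069 with total count scaling and lay between -0.037 and 0.051 without 1 library. Of the 46 pathway genes tested, 8 were dropped by the filter of 10 counts, 25 were tested under each alternative and kept their direction and call under all but a left-out library, and 14 changed without at least 1 library. With scaling by RLE, upper quartile or total count, the 8 chemokines with a fold kept their direction, as they did without any 1 library. A prior count of 0.1 in place of 1 raised the log2 difference of Ccl7 from 4.82 to 6.66 and of Cxcl2 from 7.25 to 10.56, and a floor of 10 counts lowered the bound of Cxcl2 from 53.4-fold to 16-fold.

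With the replicate number as a replicate block, 6816 of 17144 genes were called. Called were 5 of 7 other ligands, 2 of 2 chemokine receptors, 1 of 2 atypical receptors and 6 of 7 proteases and shedding factors. Of the transcript regulators 14 of 15 were called, and of the cytokine list 13 of 13. The ligand count includes Ccl3, Ccl4 and Ccl9, and that of the cytokine list includes Tnf, Il6, Il1b, Il1a and Cd14. These genes passed the expression filter only through the FGF2 libraries. Libraries of the same number did not deviate together (correlation 0.0009 over 10776 genes), so the number is not known to pair them. Depth limits the genes at or under 3 counts: for Ccl5, Ccl20 and most receptors a difference was not detectable at this depth.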
